A study of Mus musculus with 272 samples.

Results

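H3K27me3, the trimethyl mark on lysine 27 of histone H3, was mapped by ChIP-seq in muscle stem cells (MuSCs), and its 2 peak lists are described here across genes and chromosomes. They were chosen by their labels as the H3K27me3 libraries, 2 of the 272 samples of the series and 2 of the 8 samples with a peak list. The other 6 lists hold 2 libraries each of ATAC-seq, H3K4me3 and H3K27ac. Replicate 1 listed 6080 peaks and replicate 2 listed 10485, out of 333407 peaks in the 8 lists. The cells came from hindlimb muscle of Pax7Cas9 mice, in which the *Pax7* promoter drives Cre and Cre switches on a Rosa26 transgene for Cas9 and GFP, and GFP-positive cells were sorted. The 2 libraries therefore stand for the whole *Pax7*-lineage gate, and a mark carried by few cells and a weak mark in many cells cannot be told apart. The labels give skeletal muscle as the tissue but no age, sex or strain of the mice. Nothing states that the replicates came from separate animals, and the spread between them may therefore be technical. There is no condition without the mark, and the lists hold no read numbers, so the depth of each library is unknown.

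H3K27me3 is written by Polycomb repressive complex 2, whose catalytic subunit is EZH2 or EZH1, and is bound by CBX proteins of Polycomb repressive complex 1. The mark usually spreads over CpG-rich start sites of developmental regulators that a cell keeps silent, often over many kilobases, and a promoter that also carries H3K4me3 is commonly called bivalent. H3K27ac sits on the same lysine, so a single histone tail cannot carry both.

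The bases under the peaks are shown for loci with the mark over many kilobases in both replicates and, for contrast, for a narrow peak of very high enrichment. For *Pax6*, *Gata4*, *Shox2* and *Evx2*, 4 homeobox or GATA transcription factor genes among the 10 loci with most covered bases, the 180 bases around the summit of the strongest replicate 2 peak that was met by a replicate 1 peak and lay clear of untranslated regions are given. They are from the plus strand of GRCm38.p6 (mm10), in lower case with each CpG dinucleotide in capitals. The stretches lie at chr2:105676953-105677132 (*Pax6*, promoter), chr14:63245621-63245800 (*Gata4*, promoter), chr3:66973696-66973875 (*Shox2*, coding exon) and chr2:74658707-74658886 (*Evx2*, promoter).
Pax6: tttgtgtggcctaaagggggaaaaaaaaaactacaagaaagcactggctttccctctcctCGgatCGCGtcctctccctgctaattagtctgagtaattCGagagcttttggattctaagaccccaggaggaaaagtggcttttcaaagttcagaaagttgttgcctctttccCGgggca
Gata4: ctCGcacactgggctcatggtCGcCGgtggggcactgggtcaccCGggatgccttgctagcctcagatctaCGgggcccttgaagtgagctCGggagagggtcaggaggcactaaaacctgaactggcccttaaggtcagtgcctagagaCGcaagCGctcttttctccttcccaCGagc
Shox2: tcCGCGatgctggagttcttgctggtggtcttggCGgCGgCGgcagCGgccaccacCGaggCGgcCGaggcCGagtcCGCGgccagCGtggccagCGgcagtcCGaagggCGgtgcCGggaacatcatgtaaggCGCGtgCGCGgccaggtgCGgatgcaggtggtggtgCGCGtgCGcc
Evx2: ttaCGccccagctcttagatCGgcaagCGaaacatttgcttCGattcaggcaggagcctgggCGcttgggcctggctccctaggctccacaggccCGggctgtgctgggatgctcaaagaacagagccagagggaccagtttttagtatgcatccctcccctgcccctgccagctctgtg
These stretches held 5, 9, 25 and 6 CpG dinucleotides, and their GC content was 46.7%, 61.1%, 73.3% and 60.0%. The peaks they come from were 2286, 2021, 1462 and 2946 bp wide, with fold enrichments of 6.50, 7.19, 8.21 and 7.19 over the local background.

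The contrast is given by the whole of a replicate 1 peak among the 5 strongest of that list, at chr6:49543649-49543732, whose summit lay 77 bp from the start site of the processed pseudogene *Gm5305*.
Gm5305: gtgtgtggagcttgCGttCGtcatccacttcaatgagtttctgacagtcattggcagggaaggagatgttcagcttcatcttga
This peak was 84 bp wide and held 2 CpG dinucleotides, with 47.6% GC. Its fold enrichment in replicate 1 was 13.5, above the replicate 2 values of the *Pax6*, *Gata4*, *Shox2* and *Evx2* peaks. Unlike those peaks, it was not met by a peak of the other replicate.

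Of the listed peaks, 6064 and 10458 lay on the assembled chromosomes and were used. Peaks were short, with medians of 176.5 and 181 bp, and covered 1657950 and 3228087 bp, which is 0.0608% and 0.118% of the genome. The bases under them were 54.4% GC in both replicates against 41.7% in the genome, and the observed number of CpG dinucleotides over the number expected from the GC content was 0.628 and 0.579 against 0.190. Repeat-masked sequence made up 11.0% and 11.4% of peak bases against 36.4% of the genome.

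Most H3K27me3 peaks lay close to genes. By the position of the summit, 64.8% ± 3.34 (SD, n = 2) of peaks were at promoters, taken as 3 kb either side of any start site in GENCODE M21, while promoters make up 15.1% of the genome. Introns held 12.5% ± 1.54 of the peaks against 32.4% of the genome, and intergenic sequence held 19.3% ± 1.94 against 50.4%. Coding exons, untranslated regions and noncoding exons away from promoters held 1.40% ± 0.0544, 1.42% ± 0.0893 and 0.580% ± 0.00432 of the peaks. The share at promoters was 67.2% in replicate 1, 62.5% in replicate 2 and 71.3% among the regions found in both.

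Summits were densest close to start sites, but less concentrated there than those of H3K4me3. Within 3 kb of the nearest protein-coding start site lay 57.5% and 52.7% of the summits of replicates 1 and 2, within 1 kb lay 32.7% and 29.1%, and within 500 bp 20.8% and 17.8%. In the H3K4me3 lists, 62.1% and 70.1% of summits were within 500 bp. The H3K27me3 summits within 3 kb were more often downstream of the start site, 58.5% and 57.8% of them, than upstream. Taking promoters as 1 kb either side lowered the promoter share to 37.7% ± 3.24.

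The classes differed in base composition. Promoter peaks were 56.3% GC in both replicates with an observed over expected CpG of 0.670 and 0.626. Intron peaks were 48.6% and 49.0% GC with ratios of 0.420 and 0.379, and intergenic peaks were 49.1% and 49.5% GC with ratios of 0.466 and 0.415. Intron and intergenic peaks therefore stayed above the genome in both measures.

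The 2 lists were of unequal length, and replicate 2 covered 1.95 times the bases of replicate 1. At least 1 bp of a replicate 2 peak was met by 68.3% of the replicate 1 peaks (4142 of 6064), and of a replicate 1 peak by 34.8% of the replicate 2 peaks (3636 of 10458). Most peaks without a partner lay near the other list. Of 1922 such peaks in replicate 1, 73.4% were within 10 kb of a replicate 2 peak, and of 6822 in replicate 2, 70.9% were within 10 kb of a replicate 1 peak. Peaks without a partner were narrower, with median widths of 125 and 147 bp against 224 and 361 bp for those with one. Their share at promoters was 58.2% and 57.8%, against 71.4% and 71.1%. Merging the lists gave 3033 regions with a peak of each replicate, with a median length of 490 bp and 2255788 bp in all.

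Peaks lay in groups. When peaks at most 10 kb apart were joined into domains, replicate 1 formed 522 domains of 3 or more peaks and replicate 2 formed 912, and the regions found in both formed 319 domains of 3 or more regions. The number of such domains moved little with the gap, with 603, 1028 and 346 at a gap of 1 kb and 553, 963 and 335 at 3 kb. Their size did depend on it. Domains of 10 or more peaks numbered 88 and 190 at 1 kb, with 21 among the shared regions, against 157, 252 and 64 at 10 kb, and the longest spans were 29.4, 67.4 and 50.9 kb at 1 kb against 94.7, 124.8 and 81.5 kb at 10 kb. At 10 kb, domains of 3 or more held 77.3% of the replicate 1 peaks and 80.6% of the replicate 2 peaks. Domains of 10 or more held 49.6% and 50.1% of the peaks, while 952 and 1361 peaks stood alone. Where the lists were limited to a q-value of at most 0.05, the regions found in both formed 184 domains of 3 or more.

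Overlap between the replicates was high for domains of many peaks and not for domains in general. Counting every 10-kb domain, those of 1 peak included, 62.1% in replicate 1 and 39.5% in replicate 2 overlapped the other replicate, beside 68.3% and 34.8% of the peaks. Of the 10-kb domains of 3 or more peaks, 99.6% in replicate 1 overlapped a domain of replicate 2, and 84.2% in replicate 2 overlapped a domain of replicate 1. Of peaks that stood alone, 29.1% and 8.82% met a peak of the other replicate, whereas 82.6% and 46.3% of peaks in domains of 10 or more did. An annotated protein-coding start site lay inside 80.9% of the 319 shared domains of 3 or more and inside 23.5% of the 476 shared regions that stood alone. H3K4me3 regions found in both replicates met 79.9% of the former and 45.6% of the latter. Longer domains cover more sequence, and these shares were not adjusted for length.

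**Figure D1:**
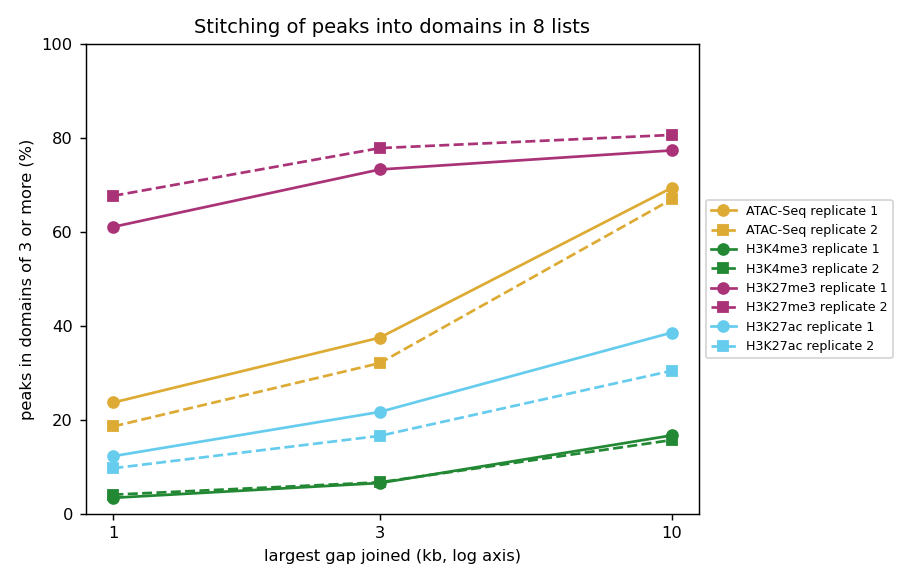
Share of the peaks of each list (y axis, percent) that fell in domains of 3 or more peaks when peaks at most 1, 3 or 10 kb apart were joined (x axis, log scale), with a line for each of the 8 libraries. The H3K27me3 lines, 61.1% and 67.7% at 1 kb and 77.3% and 80.6% at 10 kb, lay above those of the other 6 lists at every gap, and ATAC-seq came nearest at 10 kb with 69.4% and 66.9%.

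At a gap of 3 kb, peaks of the other lists were grouped less. In domains of 2 or more at a gap of 3 kb lay 83.4% ± 2.2 (SD, n = 2) of the H3K27me3 peaks, with 81.9% in replicate 1 and 85.0% in replicate 2. The other 6 lists ranged from 22.2% for an H3K4me3 list to 62.4% for an ATAC-seq list, and H3K27me3 was higher than each of them. At a gap of 10 kb the distance to ATAC-seq was small, with 84.3% and 87.0% of H3K27me3 peaks against 83.0% and 83.8% of the 140716 and 94382 ATAC-seq peaks. The difference at 3 kb from the mean of the other 6 lists, 43.8%, was 39.6 percentage points, and an exact permutation test over the 8 libraries (two-sided) gave p = 0.0714, adjusted p = 0.143 over 4 measures. The test treated all 8 libraries as interchangeable, although the other 6 come from different assays and are not replicates of each other. Its p is the smallest that 28 regroupings of 2 against 6 libraries allow, so no measure could reach 0.05. Percent GC of peak bases was also at this limit, with 54.4% ± 0.00651 for H3K27me3 against 55.3% to 58.2% (difference -2.51 points, exact permutation p = 0.0714, adjusted p = 0.143). The shares at promoters and between genes fell inside the range of the other lists, 37.9% to 85.6% and 7.96% to 27.4% (exact permutation p = 0.929 and 0.571, adjusted p = 0.929 and 0.762). The lists were not made alike, because the H3K27me3 lists reached down to a −log10 p of 3.01 and only 52.7% and 61.5% of their peaks had a q-value of at most 0.05, whereas all peaks of the other lists did. The part of this difference, and of peak number and width, in the grouping was not tested.

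The longest domains lay over developmental gene clusters. In the regions found in both replicates, the longest 10-kb domain was 81.5 kb at chr11:96251688-96333183, with the start sites of *Hoxb3* to *Hoxb9*, 67 and 102 peaks, and 19860 and 37489 covered bases in replicates 1 and 2. The next, of 62.9 kb at chr2:74648523-74711433, held *Evx2* and *Hoxd8* to *Hoxd13*, and had 31508 and 43410 covered bases, more than the *Hoxb* domain in both replicates. Hox genes encode homeodomain factors that set position along the body axis, and *Evx2* is their neighbour at the end of the Hoxd cluster.

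The remaining 8 of the 10 longest were also over transcription factor genes. *Zic1* and *Zic4*, zinc finger factors of the neural plate, shared 57.3 kb on chromosome 9, and *Zic2* and *Zic5* shared 41.9 kb on chromosome 14. *Tfap2a*, a factor of neural crest and ectoderm, had 43.5 kb, and *Hand2*, a factor of heart and limb, had 35.1 kb. *Hoxc12* and *Hoxc13* lay in 41.9 kb, *Hoxd1*, *Hoxd3* and *Hoxd4* in 37.3 kb, *Hoxb13* in 36.6 kb, and *Hoxa11* and *Hoxa13* in 32.6 kb. In replicate 2 alone, peaks ran on from *Hoxb1* to *Hoxb9* over 124.8 kb, and in replicate 1 the longest domain was 94.7 kb from *Hoxb3* to *Hoxb9*. A domain over *Tspan9* in replicate 2 spanned 59.7 kb with 28 peaks, of which the same span held 6 peaks and 1228 covered bases in replicate 1.

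The mark was counted per gene over a locus, taken as the gene with 3 kb on each side. Of 21938 protein-coding genes, 1496 and 2049 loci had a peak in replicates 1 and 2 and 1214, or 5.53%, in both. Peaks of the replicates need not overlap for this count, and 987 loci held a region found in both. The lower of the replicates reached 3 peaks in 527 loci and 10 peaks in 111. Over the 1214 loci, covered bases ranked alike in the replicates (Spearman's rho 0.827 across genes, which share peaks with their neighbours and are not independent), and the median ratio of replicate 2 to replicate 1 was 1.95. Of the 100 loci with most covered bases in each replicate, 83 were the same genes. Those 100 held 43.9% and 33.0% of all covered bases counted over loci.

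*Pax6*, a paired box homeobox factor of eye and brain, was the most covered locus of ordinary length. It lies at chr2:105668900-105697364 and had 30 and 28 peaks with 13961 and 19192 covered bases, or 405 and 557 bases per kb of locus. *Gata4*, a zinc finger factor of heart and endoderm, had 38 and 31 peaks with 13313 and 19431 bases. *Shox2*, a homeobox factor of limb and heart, had 19 peaks in both replicates with 11466 and 11970 bases. *Lhx9*, a LIM homeobox factor of gonad and limb, had 10348 and 12392, and *Tfap2a* 9912 and 15664.

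Further down, *Evx2* had 9804 and 10035 covered bases, *Otx1*, a homeobox factor of forebrain, 9637 and 11391, and *Zic4* 9042 and 16848. *Gata3*, a factor of T cells and ear, had 8998 and 12220, *Dlx1*, a homeobox factor of forebrain interneurons, 8749 and 9407, and *Otp*, a homeobox factor of hypothalamus, 8723 and 9825. *Cdkn2a* was the exception among these factors, since it encodes the cell cycle inhibitor p16 and the p53 activator ARF. It had 23 and 25 peaks with 8936 and 13927 covered bases, and an H3K27ac promoter peak in replicate 2 only.

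The other 3 of the 15 most covered loci were very long or had a marked neighbour. *Gm20388* is a gene model of 4441 kb on chromosome 8, with 62 and 109 peaks but no H3K27me3 peak at a start site of its own, and 3.36 and 7.35 bases per kb. *Fgfr2*, a fibroblast growth factor receptor gene, is annotated over 2967 kb, a stretch that includes *Hmx3*, and had 4.55 and 6.23 bases per kb. *Ostm1*, with 10122 and 15319 bases, begins next to *Nr2e1*, a nuclear receptor of neural stem cells with 25 and 21 peaks, which is among the 10 genes with most peaks.

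**Figure D2:**
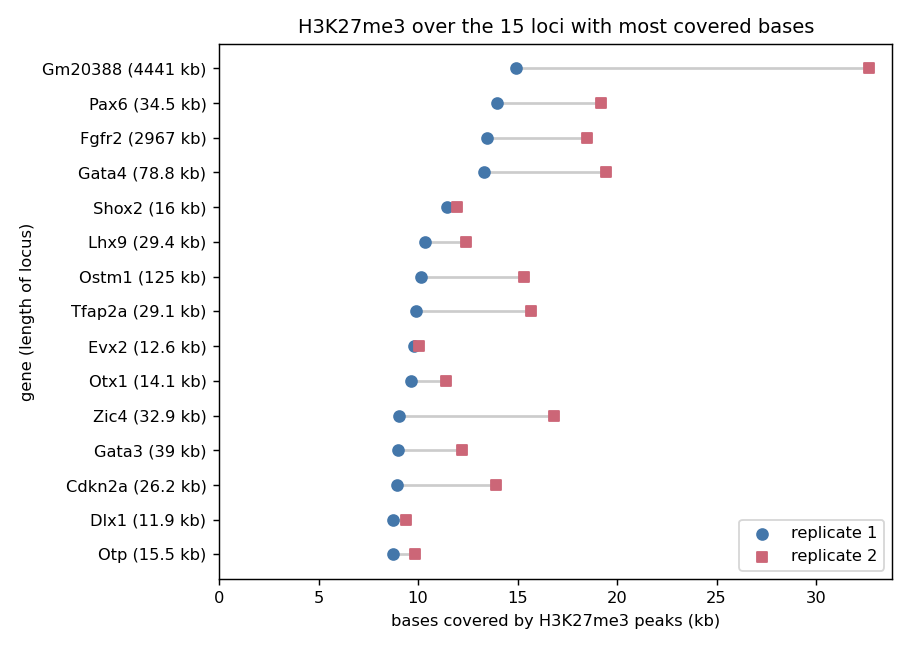
Bases covered by H3K27me3 peaks (x axis, kb) in replicate 1 (circles) and replicate 2 (squares) over the 15 loci with most covered bases by the lower replicate, with the length of each locus in kb beside its gene. Replicate 2 lay to the right of replicate 1 at all 15, by little at *Shox2*, *Evx2* and *Dlx1* and by most at *Gm20388*, whose locus of 4441 kb holds many other genes.

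Per kb of locus, *Evx2* was the most covered gene with 780 and 799 bases per kb. *Foxd3*, a forkhead factor of neural crest, had 755 and 882, *Dlx1* 737 and 793, and *Shox2* 715 and 746. *Hmx3*, a homeobox factor of the inner ear, had 712 and 839, and *Dlx2* 710 and 708. *Zic2* with 695 and 864, *Otx1* with 682 and 806, *Nkx6-1*, a homeobox factor of motor neurons and beta cells, with 673 and 759, and *Sox2*, a factor of neural and pluripotent stem cells, with 669 and 696 completed the 10. The highest value, 780 bases per kb, means that 78.0% of the *Evx2* locus was under peaks in the replicate where it was lower. All 10 had an H3K27me3 peak at a promoter in both replicates and none had one of H3K27ac, and all but *Evx2* also had an H3K4me3 promoter peak in both.

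At promoters, 1241 genes (5.66%) were marked in replicate 1, 1677 (7.64%) in replicate 2 and 1055 (4.81%) in both. A gene counted as marked in both when each replicate had a peak there, whether or not those peaks overlapped. Among genes marked in replicate 1, 85.0% were marked in replicate 2, and among those marked in replicate 2, 62.9% were marked in replicate 1. With a q-value of at most 0.05 the number marked in both was 714, and with a −log10 q of at least 5 it was 110.

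The share of marked genes with H3K27ac was lower in groups with more peaks, while the share with H3K4me3 stayed between 78.2% and 82.9%. Of the 1055, 376 had 1 peak in the replicate with fewer, 183 had 2, 386 had 3 to 9 and 110 had 10 or more. H3K4me3 was at the promoter in both replicates in 78.2%, 78.7%, 82.9% and 79.1% of these groups, against 60.8% of all protein-coding genes. H3K27ac was there in 23.4%, 16.9%, 11.7% and 9.09%, against 46.6% of all. By overlap of the peaks themselves, 35.6% of shared H3K27me3 regions at promoters met a shared H3K4me3 region and 0.925% met one of H3K27ac.

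Promoters with the mark were CpG-rich, as were those with H3K4me3 alone. In the 300 bases from 250 before to 50 after the start site, the 1055 marked genes had a median of 17 CpG (quartiles 9.5 and 24), the 11876 genes with H3K4me3 in both replicates and H3K27me3 in neither had 16 (8 and 24), and the 7824 genes with neither mark in any library had 3 (1 and 5). At least 10 CpG were found in 74.6%, 70.8% and 9.38% of these groups and in 48% of all protein-coding genes. The motif searched was CG, which reads the same on both strands.

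Families of developmental transcription factors had the highest shares of marked genes. All 12 LIM homeobox genes, all 6 *Irx* genes, all 6 *Dlx* genes and all 5 *Zic* genes were marked at the promoter in both replicates, against 4.81% of all protein-coding genes. The LIM homeobox genes were led by *Lhx9* and by *Lhx1*, a factor of kidney and head organiser, with 8615 and 10560 covered bases. The Iroquois gene *Irx5* had 5786 and 8699 bases and H3K27ac in both replicates as well, and *Irx1* had 653 and 3629. The families were named with results of these data known, and their shares are a description.

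In other families single members stood apart. Of 9 *Pax* genes, 7 were marked in both replicates, and the 2 that were not are *Pax7* and *Pax4*. *Pax7*, the factor that defines MuSCs and drives Cre in these mice, had 0 peaks over its locus in both replicates, with H3K4me3 and H3K27ac at its promoter in both. Its closest relative *Pax3*, which acts in the embryonic muscle lineage, had 10 peaks in both replicates with 1585 and 2931 covered bases and no H3K27ac peak. Among the sine oculis homeobox genes, *Six3*, *Six6* and *Six2* were marked, and *Six4* and *Six5* were among those that were not, each with 0 peaks and H3K27ac in both. *Six4* is an activator of the muscle programme, whereas *Six3* and *Six6* act in eye and forebrain and had 4594 and 11691 and 4796 and 7238 covered bases. *Six2*, a factor of kidney progenitors, had only 1 and 4 peaks with 114 and 502 covered bases and no region shared between the replicates, and it had H3K27ac in both as well. These unmarked genes were chosen after their values were seen.

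*Gata* genes were marked in 5 of 6, all but *Gata1* on the X chromosome. *Nkx* genes were marked in 12 of 14, led by *Nkx6-1* and by *Nkx2-3*, a factor of gut and spleen, with 6163 and 7970 bases. T-box genes were marked in 11 of 16, led by *Tbr1*, a factor of cortical neurons, with 7083 and 7002, and *Tbx15* was among the unmarked, with 0 peaks and H3K27ac in both replicates. Forkhead genes were marked in 21 of 44, led by *Foxa1* of endoderm with 7184 and 9947 and *Foxd1* of kidney stroma with 7148 and 8706. POU genes were marked in 8 of 15, led by *Pou4f1* of sensory neurons with 7079 and 9207. *Sox* genes were marked in 6 of 19, with *Sox21*, *Sox2* and *Sox1*, all of the neural lineage, at the head. Proneural bHLH genes were marked in 11 of 19, with *Neurog2* at 5393 and 6847 bases and *Olig2* at 4022 and 6814.

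**Figure D3:**
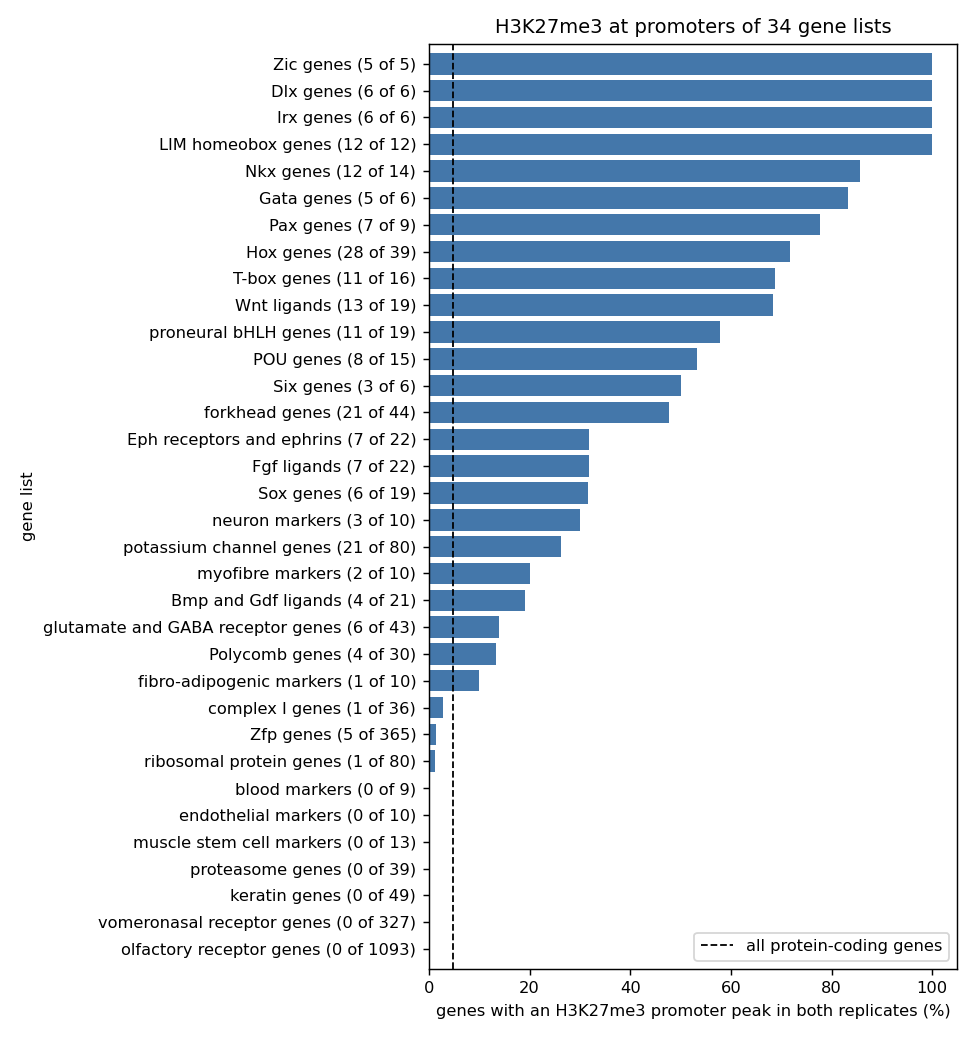
Share of the genes of 34 lists (y axis, with the count marked and the size of each list) that had an H3K27me3 promoter peak in both replicates (x axis, percent), with a dashed line at the 4.81% of all protein-coding genes. The 17 lists at the top, from 100% for the *Zic* genes to 31.6% for the *Sox* genes, are families of transcription factors or signalling proteins, and 7 lists were at 0.

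Signalling and channel genes ranged widely, and Wnt ligands, at 68.4%, lay above the proneural bHLH, POU, sine oculis, forkhead and *Sox* families. Wnt ligands were marked in 13 of 19, with a median of 258 and 695 covered bases, and were led by *Wnt7b* at 2312 and 4165 covered bases and *Wnt1* at 2292 and 4815. Fgf ligands were marked in 7 of 22 and Eph receptors and ephrins in 7 of 22, with *Fgf4* at 949 and 1541 bases and *Efna3* at 1828 and 3601. Bmp and Gdf ligands were marked in 4 of 21, led by *Gdf7* with 1509 and 3232. Potassium channel genes were marked in 21 of 80, led by *Kcng3* with 1848 and 2631, and glutamate and GABA receptor genes in 6 of 43, led by *Grin2c* with 1003 and 2573.

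Few or no genes were marked in large families of other cell types and among genes in use in all cells. Among 1093 olfactory receptor genes, 327 vomeronasal receptor genes, 49 keratin genes and 39 proteasome genes, 0 were marked in both replicates, against 4.81% of all protein-coding genes. Of 365 *Zfp* genes, 5 were marked, of 80 ribosomal protein genes 1, and of 36 complex I genes 1. The keratin, proteasome, ribosomal protein and complex I lists are too short for a count of 0 or 1 to be told from that share. The complex I gene, *Ndufs1*, had a single peak in each replicate, of 84 and 88 bp, with H3K4me3 and H3K27ac at the promoter.

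Marker genes were also counted, in lists too short for a count of 0 or 1 to be told from the 5.66% and 7.64% of all protein-coding genes marked in replicates 1 and 2 and the 4.81% in both. Of 13 MuSC markers 0 were marked in either replicate, and 13 had H3K4me3 and 12 had H3K27ac at the promoter in both. Of 10 fibro-adipogenic markers only *Pdgfra*, a platelet-derived growth factor receptor, was marked in both, with 8 peaks in both replicates and 2943 and 4974 covered bases. Of 10 myofibre markers, *Ckm* and *Acta1*, the creatine kinase and the actin of mature fibres, were marked in both with 419 and 784 and with 223 and 398 bases. Of 10 neuron markers, *Gad1*, *Slc17a7* and *Rbfox3* were marked in both, and of 10 endothelial and 9 blood markers 0 were.

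The Polycomb machinery was itself marked at 4 of 30 genes, or 13.3% against 4.81% of all protein-coding genes. *Cbx8*, a reader subunit, had 7 peaks in both replicates with 2008 and 3480 covered bases. *Bmi1*, a subunit of Polycomb repressive complex 1, had 7 and 5 peaks with 1748 and 1681 bases, and *Epop*, an accessory protein of Polycomb repressive complex 2, had 1658 and 2538. *Cbx8* and *Bmi1* had H3K27ac at the promoter in both replicates and *Epop* did not. *Cbx2* and *Pcgf1* were marked in replicate 2 only, with 88 and 480 bases. H3K27ac was at the promoter of 28 of the 30.

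The 4 Hox clusters differed. In Hoxd all 9 genes were marked in both replicates, in Hoxb 9 of 10, in Hoxc 6 of 9 and in Hoxa 4 of 11. *Hoxa3* to *Hoxa10* were the 7 Hoxa genes not marked in both replicates, with *Hoxa9* marked in replicate 1, and all 7 had H3K27ac at the promoter in both replicates. Covered bases per kb were 496 and 600 for *Hoxa13*, with 0 in both replicates from *Hoxa4* to *Hoxa7*. In Hoxb no gene had H3K27ac in both replicates, and values ranged from 0 and 153 at *Hoxb2* to 508 and 736 at *Hoxb8*. Hoxc was highest at *Hoxc13* with 549 and 801, and *Hoxc4* had 0 in both. Hoxd was lowest at *Hoxd4* with 44.5 and 110, and *Hoxd13* had 596 and 732. The loci overlap within a cluster, so neighbouring genes share peaks, and the genes were chosen after the values of the family were seen.

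**Figure D4:**
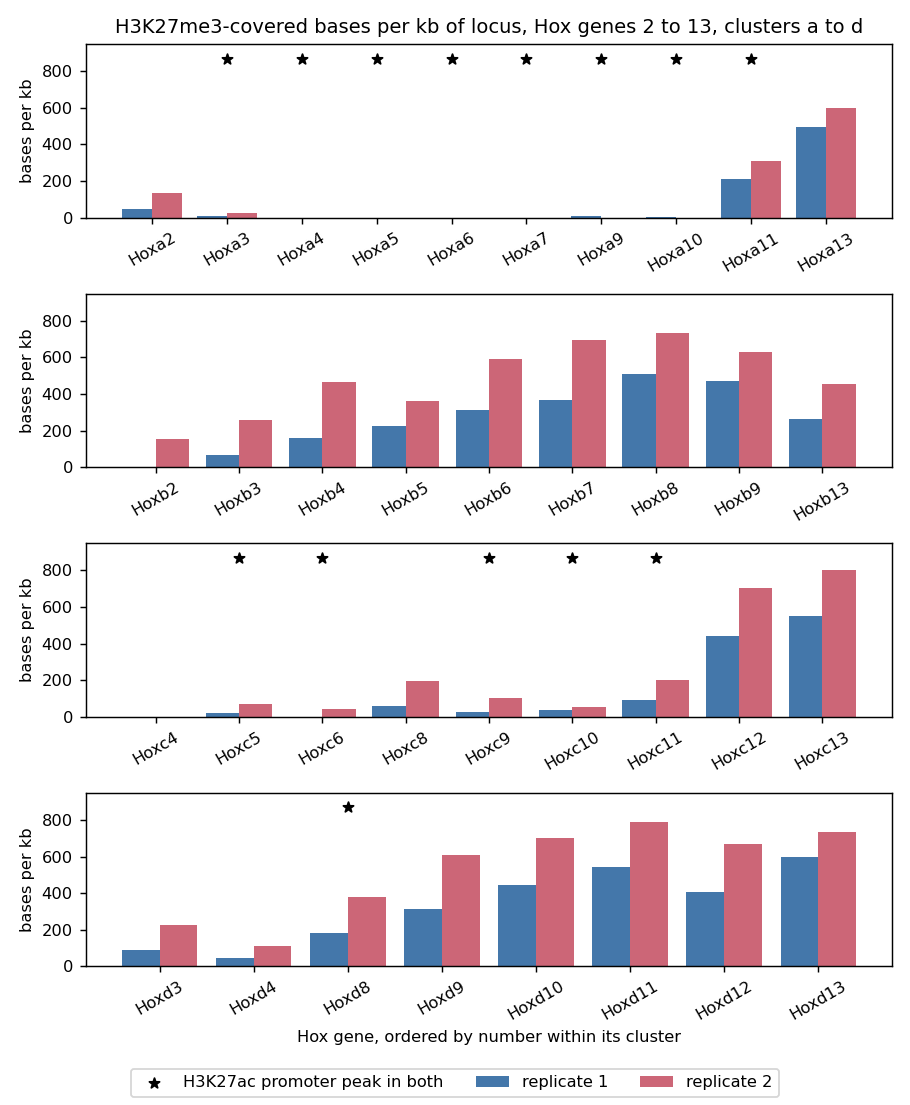
Bases covered by H3K27me3 peaks per kb of locus (y axis) for the Hoxa, Hoxb, Hoxc and Hoxd genes numbered 2 and above, from top to bottom, in replicate 1 (blue) and replicate 2 (red), with a star where H3K27ac had a promoter peak in both replicates. Stars stand over 8 Hoxa genes, 5 Hoxc genes and *Hoxd8*, mostly where the bars are low, and over no Hoxb gene.

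Other kinds of genes ranged around the 4.81% of protein-coding genes. The share marked at the promoter in both replicates was 7.83% for 562 genes annotated as misc_RNA, 5.95% for 790 processed transcripts and 5.26% for 190 lncRNAs with a bidirectional promoter, but 2.02% for lincRNA genes, 1.82% for miRNA genes and 0.262% for processed pseudogenes. Of 5854 lincRNA genes, 118 were marked at the promoter in both replicates, and of 2959 antisense genes, 139 (4.70%). Among those whose start sites were all over 3 kb from a protein-coding start site, the counts were 60 of 5285 and 23 of 1525, or 1.14% and 1.51%. With the same limit, 20 of 470 misc_RNA genes (4.26%) and 8 of 398 processed transcripts (2.01%) were marked. Only 1 lncRNA with a bidirectional promoter was left, and it was not marked in both. Of 2202 miRNA genes 40 were marked, 22 of them among the 1629 away from protein-coding start sites. Of 9940 processed pseudogenes 26 were marked.

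Chromosomes differed in density. Replicate 1 had 1.28 to 4.32 peaks per Mb on the autosomes and replicate 2 had 2.31 to 7.19, with chromosome 16 lowest and chromosome 11 highest in both. Chromosome 2 came next with 4.14 and 6.90, and chromosome 19 with 3.99 and 6.50. Peaks on chromosome 13 exceeded its share of protein-coding genes by 1.69 and 1.56 times, the highest ratio among chromosomes, and on chromosome 7, which holds large clusters of receptor genes, the ratios were 0.456 and 0.564. The Hox clusters lie on chromosomes 6, 11, 15 and 2.

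The X chromosome had 28 and 78 peaks, or 0.164 and 0.456 per Mb, and the Y chromosome 0. The density on the autosomes was 15 and 9.24 times that on X, while in the other 6 lists the ratio ran from 2.07 to 4.09. Per protein-coding gene the ratios were 9.82 and 6.06 for H3K27me3 and 1.36 to 2.68 for the others. Of 948 genes on X, 7 were marked in both replicates (0.738%), against 1048 of 20807 on the autosomes (5.04%). *Esx1*, a homeobox gene of placenta and testis, had 3 and 10 peaks with 480 and 2082 covered bases. *Pnck*, *Fam90a1b*, *Apoo* and *Tmsb4x* were also marked in both, and these genes were chosen after the counts on X were seen. The other 6 lists had 3 to 22 peaks on Y. The sex of the mice is not in the labels, and its part in these densities cannot be told apart from other differences between X and the autosomes.

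**Figure D5:**
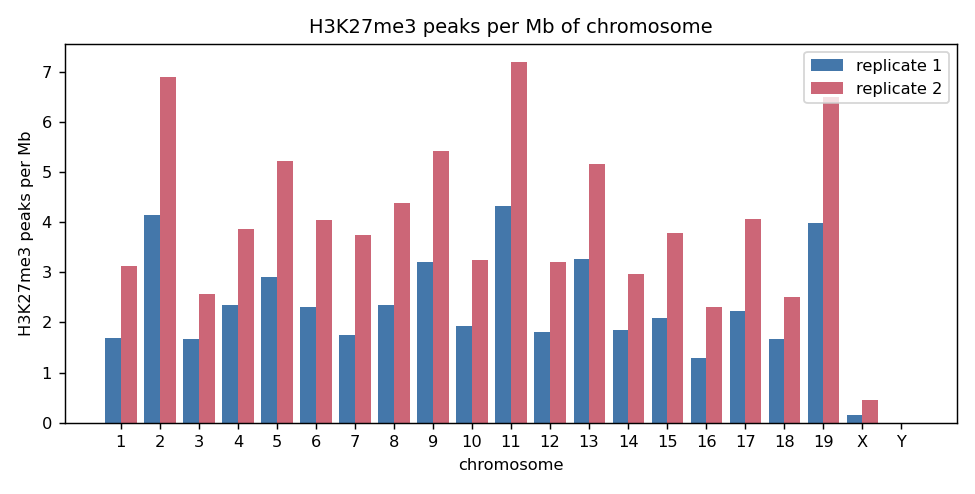
H3K27me3 peaks per Mb (y axis) on each chromosome (x axis) in replicate 1 (blue) and replicate 2 (red). Chromosomes 11, 2 and 19 were highest in both replicates, X had 0.164 and 0.456 peaks per Mb and Y had 0.

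On a scale of 1 Mb, the genome was cut into 2737 windows, of which 1244 (45.5%) had no peak in either replicate and 827 had a peak in both. The 100 windows with most peaks in each replicate held 47.2% and 41.9% of its peaks. The leading window by covered bases was the Hoxb window on chromosome 11 with 38913 and 76213 bases, followed by the Hoxd window on chromosome 2 with 36454 and 58255, the *Zic2* and *Zic5* window on chromosome 14 with 23054 and 28018, the Hoxa window with 23029 and 34008, and the *Pax6* and *Wt1* window with 22324 and 35565.

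Wide peaks were few and held much of the covered sequence. Peaks of 1000 bp or more made up 2.92% and 4.48% of the lists and 16.2% and 24.4% of the covered bases, with median fold enrichments of 5.63 and 5.82. The shortest peaks, those under 150 bp, were 40.0% and 38.9% of all, with median fold enrichments of 3.75 and 3.42.

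The very strongest peaks were of another kind. Of the 5 peaks with the highest fold enrichment in each replicate, 9 of 10 were 84 to 123 bp wide, and 8 of 10 stood alone at a gap of 10 kb. The highest of replicate 1, 90 bp wide, lay 66 bp from the start site of the immunoglobulin gene *Ighv5-17* at a fold of 23.8, where replicate 2 had 1.42. The highest of replicate 2 was 88 bp wide over *Tmsb4x*, an actin-binding peptide gene on X, at 15.4, where replicate 1 had 1.80. A peak at *Sh3bgrl3* was at 19.8 in replicate 1 and 4.69 in replicate 2.

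The start site of a processed pseudogene was the nearest of any gene, and at most 83 bp away, at 3 of the 10, *Gm5305* in replicate 1 and *Gm19810* and *Gm9372* in replicate 2. The exception in width was a peak of 2288 bp over *Hoxd11* in replicate 2, at 12, in a domain of 84 peaks, where the strongest of 3 replicate 1 peaks was at 4.88.

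At a fold enrichment of 8 or more, replicate 1 had 21 peaks, 11 of them under 100 bp wide and all 11 alone, and replicate 2 had 33, 4 of them under 100 bp and 24 in domains of 3 or more with widths of 100 bp or more. Peaks under 100 bp were 17.4% and 16.1% of the lists. Without them, 941 protein-coding genes were marked in both replicates and 282 domains of 3 or more regions remained, a limit on width that was chosen after seeing the data. Ranking by fold enrichment and ranking by covered bases thus put different loci first, and of the 10 strongest peaks only that at *Hoxd11* lay in one of the 10 longest domains.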

How the data were processed

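Peak lists of 2 H3K27me3 ChIP-seq libraries, and of 6 ATAC-seq, H3K4me3 and H3K27ac libraries for comparison, were used. The authors cross-linked sorted cells, trimmed reads with Trim Galore 0.6.10, aligned them to mm10 with BWA 0.7.17-r1188, removed reads of low mapping quality, duplicates (SAMtools 1.5) and blacklisted regions (bedtools), and called peaks with MACS2 2.2.6 in each library. The deposited H3K27me3 lists are named by the authors for a p-value limit, and their lowest −log10 p was 3.01. Whether the input shared by H3K27me3 and H3K4me3 was used, and the limits of the other lists, are not given in the sources used here. The deposited values are the authors' fold enrichment at the summit, −log10 p-value and −log10 q-value, and a score made from the p-value, with no read numbers. Intervals and floors that need counts are therefore not given.

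Assembled chromosomes of GRCm38.p6 were used, and peaks there were classed by summit with GENCODE M21, in the order promoter (3 kb either side of any start site), coding exon, untranslated region, noncoding exon, intron and intergenic. Overlap was counted from 1 bp. The genes named are the 15 with most covered bases, the 10 with most peaks, the 10 with most covered bases per kb of locus among those with 3 or more peaks in both replicates, those in the 10 longest shared domains, and up to 4 marked members of each of 34 lists, with all marked MuSC and Polycomb genes and the 5 strongest peaks per replicate, always by the lower replicate except for the last. Others are named as chosen after their values were seen. The members and lists were chosen with earlier results of these data known. Means are of 2 libraries with SD. The only test was an exact two-sided permutation over libraries, with Benjamini-Hochberg adjustment. Alternatives were q-value limits, promoter width, gap, overlap, equal list lengths, a width limit and leaving out a replicate. The interval code was tested on simulated data. Python 3.11.15, pandas 2.3.3, NumPy 2.4.6 and matplotlib 3.10.9 were used. Some members of the lists are counted but not reported here by name. The other samples of the series were not analysed here.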

Additional observations from a re-analysis of the deposited data

How the results depend on the processing

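Shares and counts depended on the settings, and the counts most on the q-value limit. The promoter share of 64.8% became 70.4% at a −log10 q of at least 5, 37.7% with promoters of 1 kb and 55.1% with protein-coding start sites only, and it was 62.5% to 67.2% with either replicate alone. The intergenic share of 19.3% became 16.1% at a −log10 q of at least 5 and 26.9% with promoters of 1 kb, and was 17.9% to 20.7% with either replicate alone. Genes marked in both, 1055, fell to 110 at a −log10 q of at least 5, and the genes marked in a single replicate were 1241 to 1677. Domains of 3 or more shared regions, 319, fell to 184 at a q-value of 0.05 and to 8 at a −log10 q of at least 5, and were 522 to 912 in a single replicate. Shared regions, 3033, became 1143 pairs when at least 50% of both peaks had to overlap, 1425 when peaks up to 1 kb apart were joined, 1708 at a q-value of 0.05 and 154 at a −log10 q of at least 5. With the same number of peaks from each list, 926 genes and 263 domains were found. Whether replicate numbers pair the libraries of different marks is not stated. The differences from the other lists in promoter share, intergenic share, GC and grouping at 3 kb were 2.41, 3.44, -2.51 and 39.6 points. They do not depend on how the libraries are regrouped. Permuting within the replicate number (replicate block, 16 regroupings) could therefore change only the p-values. The smallest exact permutation p was then 0.125, with adjusted p = 1, 0.667, 0.25 and 0.25. Depth is unknown and limits all counts of unmarked genes.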
